A study of Mus musculus with 2 samples.

Results

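Broad unmethylated valleys are stretches of several kilobases in which nearly every CpG carries no modification on either strand. They were examined in E14 cells, a mouse embryonic stem cell (mESC) line grown without feeder cells on gelatin, in medium with serum and LIF, the cytokine that keeps these cells self-renewing. Both libraries came from this line, at different passages, with no treatment and no deleted gene, so they form 1 group of 2 replicates and the design holds no comparison between conditions. Each library was read by SCoTCH-seq, which links the strands of 1 DNA fragment and calls the CpG state, that is, C, 5-methylcytosine (M) or 5-hydroxymethylcytosine (H) on the plus strand followed by the same for the minus strand. The 9 states were grouped as CC (unmodified), MC/CM (methylated on a single strand), MM (methylated on both), HC/CH (hydroxymethylated opposite an unmodified C), HM/MH (hydroxymethylated opposite a methylated C) and HH. No RNA was measured, so the identity of the cells was taken from the labels.

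The valleys were chosen by the measured CC level. The autosomes were divided into 1 kb bins, the calls of both replicates were summed, and a bin was kept if it held 5 or more covered CpG sites and if CC made up at least 85% of its calls. Runs of 5 or more adjacent kept bins are the valleys. The rule found 316 of them among 18555 runs of kept bins, and the other 18239 runs were 1 to 4 kb wide. Together the valleys covered 1878 kb, or 6.23% of the kept bins. Because CC chose the members, the CC level and the sum of all other states inside are descriptions and carry no test. The rule did not use how the modified calls, all calls but CC, divide among the other states, and the tests concern that division alone. The rule did limit the number of modified calls, which is the denominator of each share. The tests against the flank therefore do not separate the division from the CC level. Replicate 1 had 141159011 calls at 13366464 autosomal sites (mean depth 10.6), and replicate 2 had 31102023 calls at 4882356 sites (mean depth 6.37).

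In mammals most CpGs are methylated on both strands, and the exceptions are mainly CpG islands at promoters. Valleys are the wide form of this exception and are known from stem cells and tissues for holding genes of developmental transcription factors. DNMT enzymes write 5-methylcytosine, and TET enzymes oxidise it to 5-hydroxymethylcytosine, which is known to gather at the borders of unmethylated regions. A CpG methylated on a single strand also arises for a time behind each replication fork, until the new strand is methylated.

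The sequences below show what the bases of valleys look like next to a flank. Each is the plus strand of the GRCm38 (mm10) assembly of RefSeq, with every CpG in capitals, and each is the 300-base window outside annotated exons with the most covered CpGs in its stretch. The first pair lies inside and just before the widest valley, which holds Otx1, a homeobox factor of forebrain development. The third lies in the valley of Sox2, a core pluripotency factor. The last lies in the valley with the fewest CpGs per kilobase.

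Otx1 valley, inside (chr11:21993730-21994029): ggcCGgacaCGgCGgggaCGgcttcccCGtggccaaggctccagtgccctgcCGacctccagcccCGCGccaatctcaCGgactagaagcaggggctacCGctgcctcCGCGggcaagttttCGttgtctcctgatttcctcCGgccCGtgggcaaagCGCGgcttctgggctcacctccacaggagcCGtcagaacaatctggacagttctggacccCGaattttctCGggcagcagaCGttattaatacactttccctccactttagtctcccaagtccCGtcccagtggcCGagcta

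Otx1 valley, flank before it (chr11:21990900-21991199): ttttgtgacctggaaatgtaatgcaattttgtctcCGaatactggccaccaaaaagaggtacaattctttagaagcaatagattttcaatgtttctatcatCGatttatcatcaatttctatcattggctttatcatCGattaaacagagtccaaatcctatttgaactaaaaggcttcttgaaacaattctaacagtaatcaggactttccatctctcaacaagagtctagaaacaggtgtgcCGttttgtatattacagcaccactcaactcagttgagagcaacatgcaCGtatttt

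Sox2 valley, inside (chr3:34653460-34653759): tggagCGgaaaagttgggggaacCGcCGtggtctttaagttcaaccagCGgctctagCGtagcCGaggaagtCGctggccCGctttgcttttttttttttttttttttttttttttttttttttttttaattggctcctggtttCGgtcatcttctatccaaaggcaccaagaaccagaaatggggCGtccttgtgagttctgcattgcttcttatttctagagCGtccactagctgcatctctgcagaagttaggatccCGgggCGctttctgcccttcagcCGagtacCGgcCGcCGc

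CpG-poorest valley, inside (chr6:65023100-65023399): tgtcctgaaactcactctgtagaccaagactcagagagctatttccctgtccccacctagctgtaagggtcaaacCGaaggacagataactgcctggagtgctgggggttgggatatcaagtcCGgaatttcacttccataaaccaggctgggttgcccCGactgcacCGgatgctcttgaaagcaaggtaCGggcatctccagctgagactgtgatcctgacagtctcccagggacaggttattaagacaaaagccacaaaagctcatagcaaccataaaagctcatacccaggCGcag

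The window inside the Otx1 valley is intergenic, 735 bases from Otx1, and has 23 CpGs. Of the 173 calls at its 21 covered CpGs, 162 were CC, 4 MM, 4 HM/MH, 2 MC/CM and 1 HC/CH. The flank window is intergenic too, 3565 bases from Otx1, with 5 CpGs. Its 85 calls held 23 CC, 41 MM, 17 MC/CM and 4 HC/CH. The Sox2 window lies in an intron of the noncoding gene Sox2ot, 999 bases past Sox2, and all 128 calls at its 15 covered CpGs were CC. The window of the CpG-poorest valley is intergenic, 19184 bases from Smarcad1, a chromatin remodeller. It has only 6 CpGs, and all 94 calls were CC.

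Most valleys were close to the minimum width. There were 174 of 5 kb (55.1%), 105 of 6 or 7 kb and 37 of 8 kb or more, and the widest reached 13 kb. The runs just outside the rule, at 4 kb, numbered 485. The kept bins lay on a continuum of CC at the other threshold too, with 1436 bins between 85 and 86% and 1421 bins between 84 and 85%. Within the valleys, however, only 45 of 1878 bins were under 86%. The median valley bin had 97% CC, 62.5% of the bins had 95% or more, and 255 bins had no modified call at all.

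**Figure D1:**
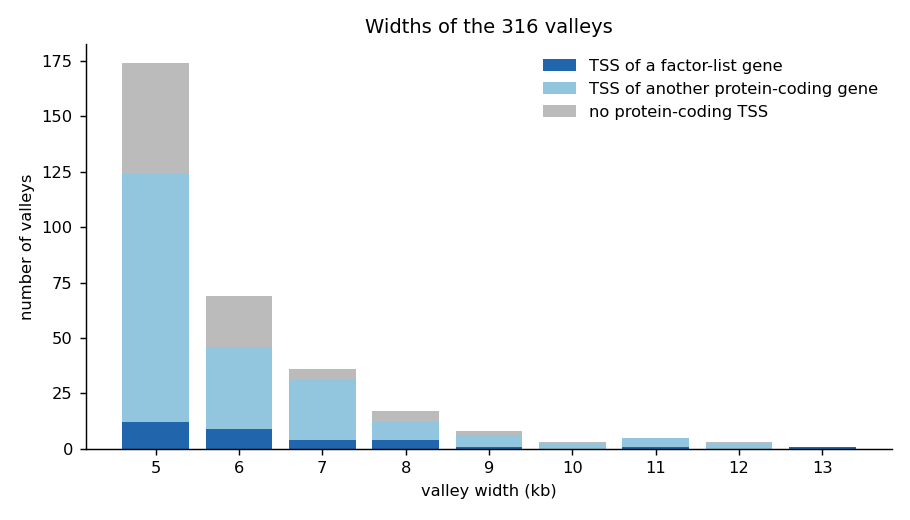
Number of valleys (y axis) by width in kb (x axis), stacked by whether a valley holds the transcription start site (TSS) of a gene in 8 lists of developmental transcription factors, of another protein-coding gene, or of none. The 174 valleys of 5 kb form the tallest bar, and 1 valley reaches 13 kb.

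Of the 632 valley ends, 529 (83.7%) met a bin with less than 85% CC. The other 103 met a bin with fewer than 5 covered sites. Of those thin bins, 68 held 5 or more CpGs in the reference, and 23 had CC at 85% or more of their few calls. Coverage thus ended some of the runs, and the widths are lower limits there.

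The valleys were richer in CpGs than their surroundings, a property that the rule used only through the minimum of 5 sites. They held 40.8 CpGs per kb, compared with 13.7 in the 5 kb on either side and 8.51 over the autosomes. The edge bins, the first and last of each valley, held 31.6, and the core bins between them 45.5. GC content was 53.8% inside, 46.4% in the flank and 41.9% over the autosomes. The ratio of observed to expected CpGs was 0.565 inside, 0.254 in the flank and 0.194 over the autosomes. Repeats and low-complexity sequence, soft-masked in the assembly, made up 15.5% inside and 25.8% of the flank. Shorter unmethylated runs did not have fewer CpGs: runs of 1 to 4 bins held 44.4 per kb. Single valleys ranged from 8.2 to 92.2 CpGs per kb with a median of 41.8, and 41 valleys had fewer than 20. A lower share of CpGs was covered inside (50.1%) than in the flank (71.5%), and depth was lower too, at 8.96 calls per site inside and 10.3 in the flank in replicate 1. With a minimum of 3 covered sites per bin there were 362 valleys, and with 1 thin bin allowed inside a run there were 366.

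Inside the valleys, CC made up 96% of calls in replicate 1 and 94.8% in replicate 2 (mean 95.4% ± 0.832, SD, n = 2). MM was the most frequent modified state, at 1.76% and 2.06% (1.91% ± 0.215). MC/CM followed at 0.976% and 1.52% (1.25% ± 0.384). HC/CH was 0.952% (95% exact interval 0.919 to 0.986) in replicate 1 and 1.23% (1.16 to 1.32) in replicate 2, or 1.09% ± 0.200. HM/MH was 0.268% and 0.298% (0.283% ± 0.0213), and HH was 0.0455% and 0.0619% (0.0537% ± 0.0116). All intervals cover counting error only. In both replicates the order of the states was the same, with HC/CH at 3.56 and 4.15 times HM/MH.

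The unmethylated pUC19 plasmid DNA added to each library gives 1 measure of the level that miscalls alone reach. There, CC was 99.7% in replicate 1 and 99.4% in replicate 2. HC/CH was 0.0344% and 0.0859%, so that the valley levels were 27.7 and 14.4 times higher. MC/CM was 0.264% and 0.461%, and the valley levels were only 3.70 and 3.30 times higher. MM on the plasmid was 0.00161% and 0.0157%. Beside the plasmid, single-strand methylation was therefore the state closest to its background, and HC/CH stood well above its own. Duplexes of known state were added too. At their unmodified CpGs CC was 96.2 to 99.6% of calls over both replicates, so that the fold values above hold for the plasmid only.

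The spike-in duplexes with known states allow a correction for miscalls, by solving the 9 linear equations that link true to called states. After it, HC/CH inside was 0.805% and 1.07% in the replicates (mean 0.939% ± 0.190, SD, n = 2). MC/CM dropped to 0.326% and 0.154% (0.240% ± 0.122). As called, HC/CH was 0.976 and 0.813 times as frequent as MC/CM. After correction it was 2.47 and 6.97 times as frequent. With the pUC19 levels subtracted instead, an alternative chosen after seeing the data, it was only 1.29 and 1.09 times as frequent, so that the size of this ratio depends on the background used. Over the autosomes, the corrected ratio was 0.278 and 0.270. In the runs of 1 to 4 kept bins it was 2.17 and 5.70, so that a high ratio was not particular to the valleys. In the core bins MC/CM was 0.807% and 1.34% as called, above HC/CH at 0.753% and 0.942%. The corrected MC/CM level there was 0.153% and 0.00533%, whereas corrected HC/CH was 0.608% and 0.765%. Which of the 2 states was more frequent in the core thus depended on the correction. Corrected MM inside was 1.89% and 2.05%, close to the called level.

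The border of the valleys was abrupt for CC and MM and nearly flat outside for HC/CH. In the first kb outside, CC was 63.8% in replicate 1 and 58.1% in replicate 2, and it declined to 42.0% and 38.1% at 10 kb. In the edge bins CC was 94.0% and 92.6%, and in the next bins 97% and 96.2%. MM went from 20.5% and 23.7% in the first kb outside to 38.5% and 41.6% at 10 kb. These bins are set partly by the rule, which placed the edge where CC crossed the minimum.

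HC/CH was 5.75% and 6.23% in the first kb outside, 6.39% and 6.35% in the second, and 5.76% and 5.79% at 10 kb. Over the whole 5 kb flank it was 5.95% (5.87 to 6.04) in replicate 1 and 6.14% (5.97 to 6.31) in replicate 2, or 6.04% ± 0.132 (SD, n = 2). Over the autosomes it was 4.07% and 3.67%. The flank was therefore above the autosomal level in both replicates. The valleys were below it, but their choice by CC limited the sum of all modified states inside, so that this is no separate result. Inside, HC/CH fell from 1.36% and 1.80% in the edge bins to 0.753% and 0.942% in the core. HM/MH had a different course: it was 2.62% and 2.37% in the first kb outside and 3.91% and 3.25% at 10 kb, and over the autosomes it was 4.01% and 2.47%. Fully methylated lambda DNA read as HM/MH in 3.88% and 0.340% of calls, so that the called level where MM is high holds miscalls, above all in replicate 1. After the spike-in correction HM/MH was 1.89% and 2.63% in the flank and 1.31% and 2.12% over the autosomes, with the replicates in the opposite order.

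**Figure D2:**
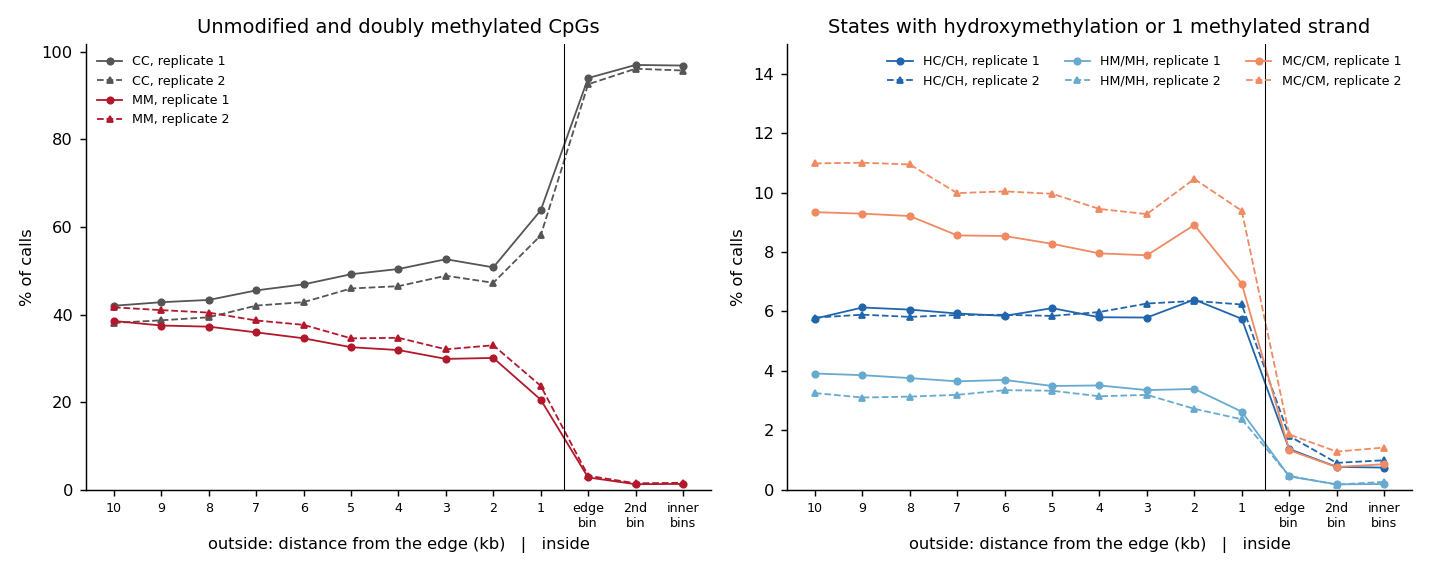
Level of each state as % of calls (y axis) by position (x axis), from 10 kb outside to the inner bins, with both ends of all valleys folded together; circles and solid lines are replicate 1, triangles and dashed lines replicate 2. HC/CH stays between 5.75 and 6.39% in every kb outside and is below 2% in the edge bins.

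Among the modified calls, which by the rule are far fewer inside, the valleys held a larger share of HC/CH than their flanks. HC/CH made up 23.8% of modified calls in replicate 1 and 23.9% in replicate 2 (23.8% ± 0.0337, SD, n = 2). In the flank the share was 12.8% and 12.2% (12.5% ± 0.462). The difference was 11 percentage points in replicate 1 and 11.7 in replicate 2 (11.4 ± 0.495). It was positive on 19 of 19 autosomes in each replicate, ranging from 6.46 to 16.7 points in replicate 1 and from 4.98 to 17.4 in replicate 2. An exact two-sided sign-flip permutation test over the autosomes gave p = 3.8e-06 in each, the smallest value it can give (Benjamini-Hochberg adjusted over 4 tests, 7.6e-06). Autosomes are blocks of 1 library and not replicates. This p therefore describes how consistently the difference kept its sign over the autosomes of these libraries, not how even its size was.

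The same measure was taken in calls that had no part in choosing the valleys. Valleys chosen on replicate 1 alone numbered 334, and in replicate 2 HC/CH made up 23.6% of the modified calls inside them and 12.2% in their flanks. That difference of 11.4 points was again positive on 19 of 19 autosomes, with an adjusted p of 7.6e-06 in the exact permutation test. CC in replicate 2 was still 94.2% inside these valleys and 48.6% in their flanks. The share was thus again not separated from the CC level. In the 33 valleys chosen on replicate 2 alone, the share in replicate 1 was 21.5% inside and 12.7% in the flank. With the pUC19 miscall rates subtracted, an alternative chosen after seeing the data, the difference was 12 points in replicate 1 and 12.9 in replicate 2. With only sites of 10 or more calls, 48 valleys were left, and the difference was 7.31 and 8.33 points. It was then positive on 13 of 17 and 7 of 14 autosomes, with an adjusted p of 0.039 and 0.50 in the same exact permutation test, so that replicate 2 no longer passed.

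As called, MM had the opposite course. It made up 44.0% of modified calls inside in replicate 1 and 39.9% in replicate 2, compared with 62.1% and 62.3% in the flank. MC/CM made up 24.4% and 29.3% inside and 17.1% and 19.2% in the flank. HM/MH made up 6.69% and 5.75% inside and 7.02% and 5.80% in the flank. These are shares as called, and the spike-in correction changed them. After it, MM made up 58.7% and 57.5% of modified calls inside and 67.4% and 64.6% in the flank, a smaller gap. The direction for MC/CM depended on the background. After the spike-in correction it made up 10.1% and 4.31% inside and 15.9% and 17.1% in the flank. With the pUC19 levels subtracted instead it made up 19.3% and 23% inside and 16.7% and 18.5% in the flank. HM/MH made up 5.58% and 6.68% inside and 4.08% and 5.27% in the flank after correction. The HC/CH share kept its direction, at 24.9% and 30.1% inside and 12.2% and 12.5% in the flank.

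**Figure D3:**
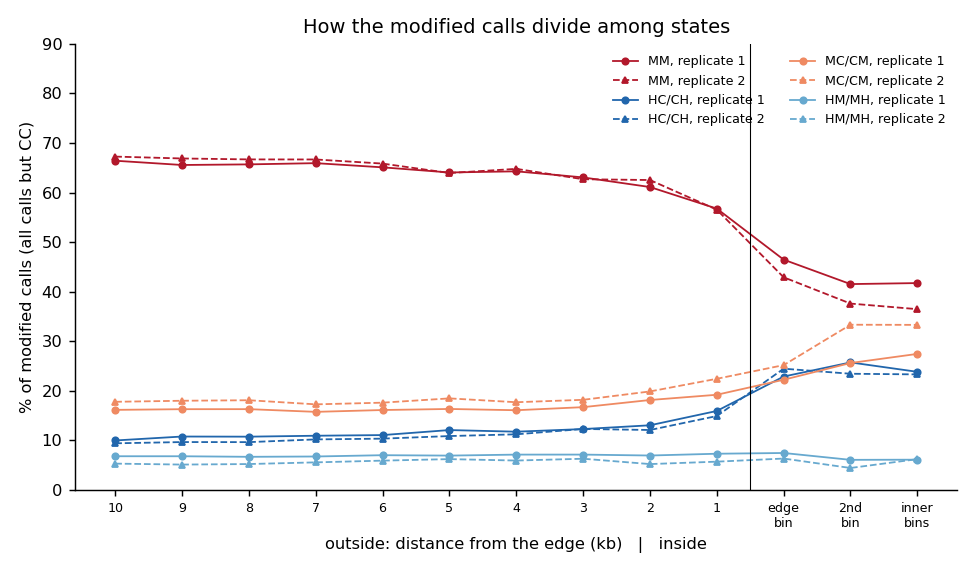
Share of the modified calls (all calls but CC) taken by MM, MC/CM, HC/CH and HM/MH (y axis, %) by position (x axis) from 10 kb outside to the inner bins; circles and solid lines are replicate 1, triangles and dashed lines replicate 2. The HC/CH share is 9.92 and 9.35% at 10 kb, 15.9 and 14.9% in the first kb outside and above 22% in all bins inside.

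Outside, the division of the modified calls changed over several kb. The HC/CH share of modified calls was 9.92% and 9.35% at 10 kb, 12% and 10.8% at 5 kb and 15.9% and 14.9% in the first kb. The HC/CH level as % of all calls stayed within the range given above over the same distance. Within the valleys the share was 22.8% and 24.4% in the edge bins and 24.7% and 23.3% in the core, an order that differed between the replicates.

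The HC/CH share differed less between the valleys and narrower unmethylated runs. In runs of 1 to 4 kept bins HC/CH made up 22.8% and 22.5% of modified calls, which is 1.03 and 1.40 points below the valleys (1.22 ± 0.266, SD, n = 2). The valleys were higher on 10 and 12 of 19 autosomes, and the exact two-sided permutation test gave an adjusted p of 0.076 and 0.22. The difference thus did not pass the threshold of 0.05 in either replicate. With the pUC19 miscall rates subtracted it was 1.31 and 1.75 points, and replicate 1 then passed, at an adjusted p of 0.034 in the same exact permutation test, while replicate 2 did not (0.17). Per autosome it ranged from -1.89 to 6.06 points in replicate 1 and from -7.23 to 7.73 in replicate 2. The runs of 3 and 4 kb, closest in width to the valleys, had a share of 22.2% (21.9 to 22.6) and 21.3% (20.7 to 22.0), with intervals, for counting error only, below those of the valleys (23.1 to 24.6 and 22.5 to 25.2). This gap was not tested over the autosomes. The HC/CH level in the short runs was 1.14% and 1.39%, and CC was 95% and 93.8%. Among the valleys themselves, HC/CH made up 23% and 24.5% of modified calls at 5 kb, 24.9% and 24.6% at 6 or 7 kb and 23.9% and 20.6% at 8 kb or more.

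**Figure D4:**
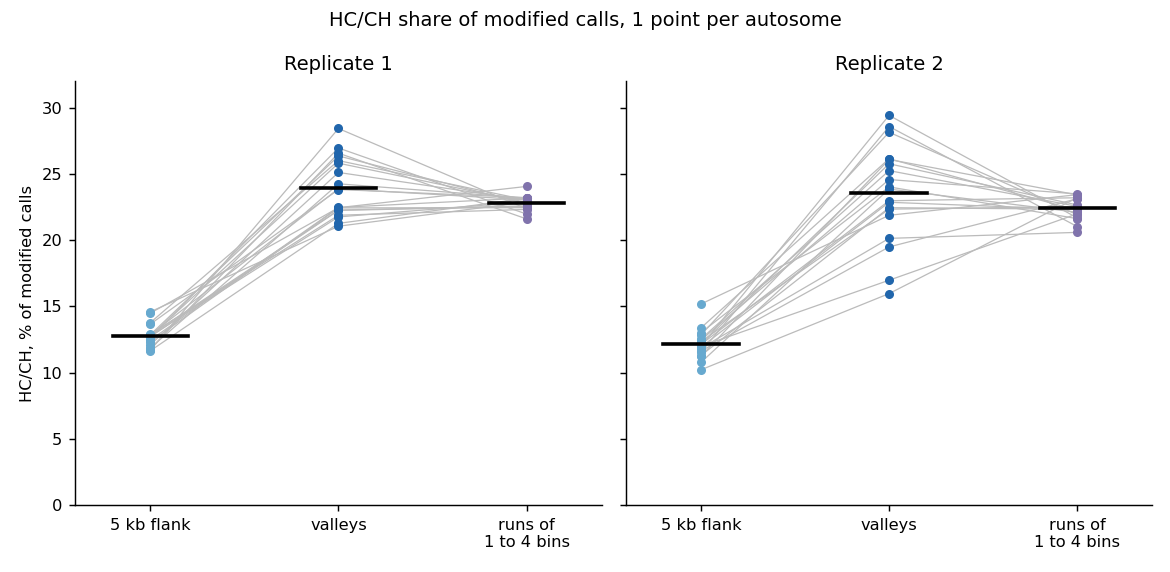
HC/CH as % of modified calls (y axis) in the 5 kb flanks, the valleys and the runs of 1 to 4 bins (x axis), with 1 point per autosome, grey lines joining the same autosome, black bars for the mean over autosomes, and a panel per replicate. Every autosome is higher in the valleys than in the flank, whereas the valleys and the shorter runs overlap.

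The modified base lay on both strands at the borders. For HC/CH in the flank, the hydroxymethylated base lay on the strand that runs 5′ to 3′ into the valley in 49.4% of calls (48.6 to 50.1) in replicate 1 and 48.8% (47.3 to 50.2) in replicate 2. For MC/CM the methylated base lay on that strand in 49.5% (48.9 to 50.2) and 50.4% (49.3 to 51.6). In the first kb alone, the HC/CH share on that strand was 48.5% (46.9 to 50.1) and 45.1% (42.0 to 48.3), with the interval of replicate 2 below 50%. In the edge bins it was 47.0% (44.4 to 49.6) and 48.4% (43.8 to 53.0), and there the interval of replicate 1 was below 50%. Over both replicates the interval for HC/CH was below 50% in the flank (49.3%, 48.6 to 49.9), its first kb (47.8%, 46.3 to 49.2) and the edge bins (47.3%, 45.1 to 49.6), a departure of under 3 points. For HM/MH in the edge bins the share was 48.9% (44.3 to 53.6) and 39.3% (30.6 to 48.6). These intervals count every call as independent.

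The annotation class of a CpG inside the valleys went with its level. Promoters, taken as 1 kb either side of a protein-coding TSS, held 32.2% of the covered sites, exons 18.5%, introns 27.9% and intergenic DNA 21.4%. HC/CH was 0.568% in replicate 1 and 0.678% in replicate 2 at promoters, and 1.23% and 1.67% in intergenic DNA. MM was 0.867% and 0.994% at promoters and 2.36% and 2.84% in intergenic DNA. The HC/CH share of modified calls varied less, from 22.3% and 23.2% in introns to 26.1% and 25.9% at promoters. In the short runs promoters held 59.4% of the covered sites, a larger part than in the valleys.

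Of the 316 valleys, 229 (72.5%, exact 95% interval 67.2 to 77.3) held the TSS of at least 1 protein-coding gene, and 35 held 2 or more. The number of genes with a TSS in a valley was 268 of 20807 on the autosomes, a background of 1.29% for the gene lists. A TSS in a kept bin of a run of any width was much more common, at 9964 genes (47.9%). The valleys thus took in few of the unmethylated promoters. In 30 valleys a whole protein-coding gene lay inside, 37 genes in all. The TSS of 150 genes of other types lay in 105 valleys.

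The 10 widest valleys and their genes are a mixture of regulators and other genes. The widest, 13 kb on chromosome 11 (chr11:21992000-22004999), holds the whole of Otx1 and had 307 covered CpGs. CC there was 94.6% in replicate 1 and 92.5% in replicate 2, and HC/CH was 1.49% and 1.19%. It was followed by a 12 kb valley on chromosome 5 (chr5:123132000-123143999) with the TSSs of Rhof, a small GTPase, and Setd1b, a histone H3K4 methyltransferase. That valley was among the least modified, with 99.0% and 97.4% CC and HC/CH at 0.336% and 0 of 389 calls, which allows up to 0.771%.

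The other valleys of 12 kb lay in Rarg, a retinoic acid receptor, on chromosome 15 (chr15:102239000-102250999) and at Mybl2, a cell cycle regulator, on chromosome 2 (chr2:163051000-163062999). CC was 96.1% and 93.9% in the Rarg valley and 93.1% and 94.0% in the Mybl2 valley, where MM was 4.31% and 3.54%. The 11 kb valleys held the TSS of Tnrc18, Zfp503, Sox2, Anp32a and Trim71, and the 10 kb valley with the most covered CpGs held that of Ltbp4. Zfp503 encodes a transcriptional repressor, Trim71 an RNA-binding protein of early development, Anp32a a histone-binding protein and Ltbp4 a protein that binds latent TGF-β. The Zfp503 valley (chr14:21981000-21991999) had HC/CH of 1.30% and 1.58%. The Sox2 valley (chr3:34646000-34656999) had 0.309% and 0.226%, and its MC/CM was 1.28% and 2.71%. Across these 10 valleys, HC/CH over both replicates ranged from 0.283% (exact 95% interval 0.114 to 0.583) at Rhof and Setd1b to 1.43% (1.02 to 1.95) at Otx1.

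The 87 valleys without the TSS of a protein-coding gene were of several kinds. In 39 of them another transcript of a protein-coding gene begins, so that 268 valleys (84.8%) held some annotated start of a protein-coding gene. In 34 valleys no annotated transcript of a protein-coding gene and no gene of any type begins. The 5 widest of the 87 were the Rarg valley, where a further Rarg transcript begins, a 10 kb valley on chromosome 6 with the noncoding gene Rncr4, a 9 kb valley over part of Nkx2-2, a 9 kb valley on chromosome 15 nearest to Tuba1a, and, of 5 such valleys of 8 kb, the one with the most covered CpGs, over part of Otx2. The Rncr4 valley is 123012 bases from the nearest protein-coding TSS, that of Nrf1. The Tuba1a valley is 31297 bases from the TSS of that tubulin gene and holds no gene start. Nkx2-2 and Otx2 encode homeobox factors of neural development, and their own TSS bins lie in other, shorter runs of 3 and 2 kb, while a further transcript of each begins in the valley. HC/CH was 1.72% and 2.62% in the Nkx2-2 valley and 1.78% and 0.202% in the Otx2 valley.

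Valleys without a TSS were poorer in CpGs, with a median of 25.6 per kb compared with 46.0 in the others. Their HC/CH level was 1.08% and 1.48%, and HC/CH made up 22.5% and 23.1% of the modified calls. The CpG-poorest of all lies on chromosome 6 (chr6:65021000-65025999), with 41 CpGs in 5 kb, 94.4% and 94.6% CC, and Smarcad1 as the nearest gene.

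Developmental transcription factors were more often in valleys than protein-coding genes at large, by count. Of 331 genes in 8 lists of such factors, 32 (9.67%) had their TSS in a valley, beside the background of 1.29%, and they fell in 32 valleys. The count followed the number of valleys. It was 4 (1.21%, beside 0.183% of all genes) with sites of 10 or more calls, 61 (18.4%, beside 3.28%) with valleys of 4 or more bins, 3 (0.906%, beside 0.115%) without replicate 1 and 33 (9.97%, beside 1.34%) without replicate 2. Homeobox factors outside the Hox clusters gave 18 of 157 (11.5%). They include Otx1, Meis2, Pou5f1, Tgif1, Onecut2, Gsc, Dlx1, Dlx5, Irx2, Irx5, Six2, Pou3f2 and Pou3f3. The Zic and Gli factors, zinc finger proteins of which the Gli members act in Hedgehog signalling, gave 3 of 7, with Gli2, Gli1 and Zic2. The forkhead list gave 4 of 41 (Foxh1, Foxd3, Foxp4 and Foxo3), the Sox list 2 of 18 (Sox2 and Sox9) and the Gata list 1 of 5 (Gata6). The list of bHLH lineage factors, taken by symbol and also holding the Id genes, gave 2 of 48 (Hes1 and Id3). None of 16 T-box genes had a TSS in a valley. Pax3, a paired-box factor of muscle and neural crest, was not in a valley: its TSS lay in a run of 2 kb, in a bin with 94.0% CC.

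The Hox genes pattern the body axis. Hoxb7 and Hoxd11 of 39 had their TSS in a valley (5.13%, beside the background of 1.29%). In a kept bin of any run, valleys included, 31 of 39 (79.5%) had it, beside a background of 47.9%. The HoxA cluster spans 106 bins, of which 35 were kept, 11 had too few covered sites and 60 were under 85% CC, and its longest run was 3 kb. The HoxB cluster had 37 kept bins of 175, HoxC 32 of 116 and HoxD 26 of 98. The longest runs were 6, 4 and 6 kb. Over the whole HoxA cluster CC was 76.6% in replicate 1 and 71% in replicate 2, with HC/CH at 4.22% and 5.04%. In HoxD CC was 70.8% and 61.8%, and HC/CH was 4.12% and 5.06%. These clusters include all bins, whatever their CC, so that their levels are not comparable with those of the valleys, which were chosen for high CC.

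The pluripotency list had the second highest share, with 6 of 20 genes (30%): Sox2, Pou5f1, Klf2, Sall4, Lin28a and Zfp42. Pou5f1 encodes Oct4, Klf2 and Sall4 are zinc finger factors of the same network, Lin28a binds RNA and Zfp42 encodes Rex1. Sox2 and Pou5f1 are also in the factor lists. The count was 1 (5%, beside 0.115% of all genes) without replicate 1 and 5 (25%, beside 1.34%) without replicate 2. It was 1 (5%, beside 0.183%) with sites of 10 or more calls and 10 (50%, beside 3.28%) with valleys of 4 or more bins. The Polycomb and Trithorax list, taken by symbol and with all Cbx genes, gave 4 of 33 (Phc1, Jarid2, Eed and Cbx3). Of these, Cbx3 encodes a heterochromatin protein and not a Polycomb subunit. Fgf9 and Fgf11 were 2 of 20 in the Fgf list, also taken by symbol, and Fgf11 is an intracellular protein and not a secreted ligand. Bmp4 was 1 of 34 in the list of BMP and GDF ligands and signalling antagonists, and none of 19 Wnt genes was found. Housekeeping genes were present as well in the valleys, with 4 of 80 ribosomal protein genes (5%, beside the background of 1.29%). In a kept bin of any run 71 of these 80 (88.75%) had their TSS, beside 47.9% of all genes. Replication-dependent histones gave 6 of 67 (8.96%), in only 2 valleys of the Hist1 cluster. A share above the background was thus not particular to the developmental factors. None of the 1128 olfactory receptors and none of the 57 clustered protocadherins had a TSS in a valley. In a kept bin of any run 1 olfactory receptor (0.0887%) and 17 protocadherins (29.8%) had it, beside 47.9% of all genes. At a background of 1.29%, lists as small as the protocadherin, Wnt and T-box lists can give 0, so that their counts of 0 do not set them apart. Members of a family in 1 valley, such as the histones, are not independent of each other.

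**Figure D5:**
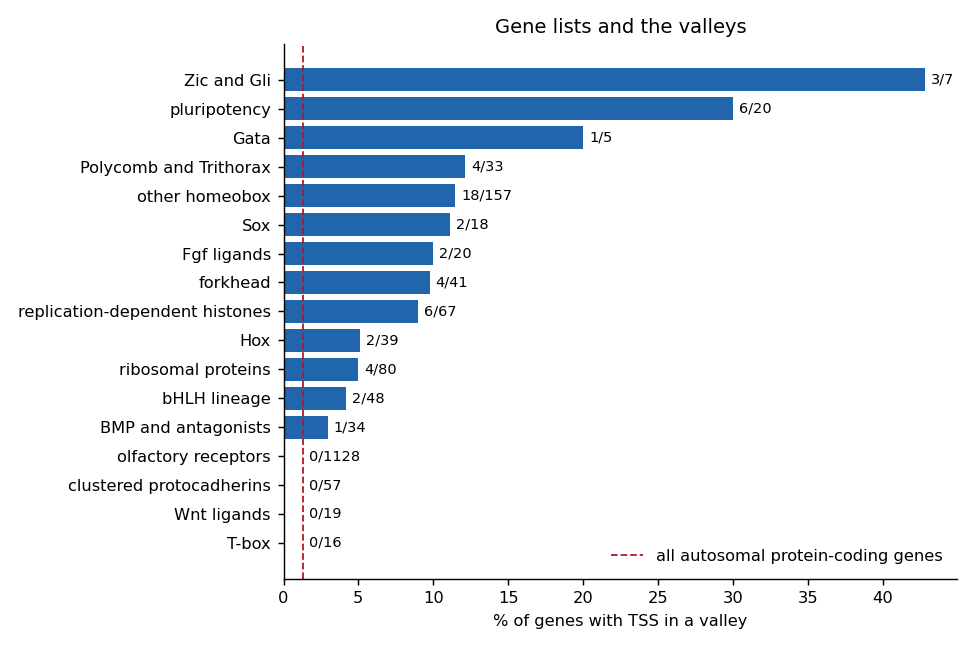
Percent of the autosomal genes of each list with their TSS in a valley (x axis), by list (y axis), with the number of genes beside each bar; the dashed line is the share of all autosomal protein-coding genes, 1.29%. Zic and Gli, pluripotency and Gata genes have the longest bars, on 7, 20 and 5 genes, and 4 lists have none.

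The amount of HC/CH differed among these gene groups. The 30 valleys with a factor-list TSS and no pluripotency gene had HC/CH at 1.35% in replicate 1 and 1.83% in replicate 2. The 6 pluripotency valleys had 0.363% and 0.495%. The 280 other valleys lay between, at 0.918% and 1.18%. The groups kept this order in both replicates. HC/CH made up 27.6% (25.7 to 29.5) of the 2192 modified calls of the first group, 12.6% (8.78 to 17.3) of the 254 of the second and 23.5% (22.8 to 24.2) of the 14583 of the third. In the flanks the shares were 11.9%, 16.8% and 12.7% in the same order. Inside the pluripotency valleys HC/CH was 24 of 194 modified calls in replicate 1 (12.4%, 8.09 to 17.8). In replicate 2 it was 8 of 60 (13.3%, 5.94 to 24.6). Their flanks had 17% and 16.1%, within these intervals, so that a lower share inside than outside was not resolved. MM differed less, at 1.97% and 2.36% in the first group and 1.41% and 1.73% in the second. CC was 95.1% and 93.4% in the first group and 97.1% and 96.3% in the second, with 52.1 and 29.5 CpGs per kb. The intervals count every call as independent. The groups were formed with these data known and were not tested against each other.

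Single valleys spread widely. In the Pou5f1 valley (8 kb) HC/CH was 0.194% and 0.811%, and in the Sall4 valley (7 kb) 0.214% and 0 of 267 calls, which allows up to 1.12%. In the Gsc valley, around a homeobox gene of the gastrula organiser, it was 3.54% and 4.95%, the highest of all 316 over both replicates (3.75%, exact 95% interval 2.82 to 4.87). That valley was singled out after its values were seen. The Dlx1 valley had 2.36% and 1.96%, the Zic2 valley 1.61% and 2.34%, the Hoxb7 valley 1.74% and 2.20%, and the Sox9 valley 2.52% and 1.12%. The lowest of the factor valleys, leaving out Sox2 and Pou5f1, was that of Pou3f3, a neural POU factor, at 0.454% and 0 of 115 calls, which allows up to 2.61%. Foxo3, Uncx, Tgif1, Id3, Gli1 and Meis2 also lay under the 1.00% of the Lin28a valley over both replicates, and the Lin28a valley itself had 1.23% and 0 of 110 calls, which allows up to 2.73%. The ranges of the groups thus overlapped.

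The precision for a single valley was limited by depth. A valley had a median of 111 covered CpGs, 947.5 calls in replicate 1 and 222 in replicate 2. Its modified calls had a median of 36.5 and 10, and no valley reached 100 in each replicate, so that the valleys were not ranked by the division of their modified calls. Over both replicates the HC/CH level had a median of 0.904%, with quartiles of 0.563 and 1.41%, and 2 valleys had no HC/CH call. Across the 300 valleys with 100 or more calls in each replicate, the levels in the replicates had a Pearson correlation of 0.508 for HC/CH, 0.530 for MM, 0.674 for CC and 0.283 for MC/CM. These points share their sequence and their choice by CC. Width and the HC/CH level had a correlation near 0 (Pearson's r = -0.0324, Spearman's coefficient = 0.00556 over 316 valleys, as a description).

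The choice of valleys itself depended on replicate 1. Alone, replicate 1 gave 334 valleys, of which 292 touched a valley of the sum, while replicate 2 gave 33, of which 29 did. In replicate 2 only 59.4% of the valley bins reached 5 covered sites, compared with 99.5% in replicate 1. Along the genome, neighbouring valleys were a median of 3349 kb apart. Of 297 neighbouring pairs, 32 were within 100 kb and 8 within 10 kb. Chromosome 11 held the most valleys, at 34, and chromosome 16 the fewest, at 2.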

How the data were processed

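Each library was sequenced to give the state of both strands of a CpG at once. The authors trimmed the reads (cutadapt 4.6 in the submitters' processing notes), aligned them to mm10 with BSBolt, removed duplicates (Picard 3.1.1), left out blacklisted regions and deposited, per CpG site and state, a count of calls and the percent of the site's calls, for sites with at least 5 calls. Only the deposited counts were used, and the deposited percent column matched the percent computed from them to within rounding error in every line. All 18592576 site entries checked, with a site covered in both replicates counted in each, lay on a CpG of GRCm38, the assembly used with GENCODE annotation.

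Counts of both replicates were summed in autosomal bins of 1 kb, and levels were taken per replicate. A TSS is the 5′ end of a gene. The replicates are passages of 1 line, so their SD (n = 2) may be technical. Intervals are exact (Clopper-Pearson, 95%). The limits given for a count of 0 are not such intervals but 3 calls as a percent of the calls of that valley and replicate. The HC/CH share of modified calls was compared by an exact two-sided sign-flip permutation test over 19 autosomes in each replicate, with Benjamini-Hochberg adjustment over 4 tests, and the scripts were tested on simulated data. The members, gene lists and tests were chosen with earlier results of these data known. Valleys were named by width, ties broken by covered CpGs, and from each gene list. A planned ranking by share was not made, since no valley reached its minimum of 100 modified calls per replicate. SciPy 1.17.1, pandas 2.3.3 and NumPy 2.4.6 were run under Python 3.11.15, and figures were drawn with Matplotlib 3.10.9.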

Additional observations from a re-analysis of the deposited data

How the results depend on the processing

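The number of valleys was 494 at a CC minimum of 80% and 170 at 90%, 160 with 10 covered sites per bin, 801 with 4 or more bins, 37 with 8 or more and 48 with sites of 10 or more calls, and leaving out a replicate gave 33 to 334. CC inside, 95.8% over both replicates, was 94.4% and 97.2% at the CC minima of 80 and 90%, 94.2% in replicate 2 for valleys chosen on replicate 1, 96.8% after the spike-in correction and 95.9 to 96.1% leaving out a replicate. HC/CH inside, 1.01%, was 1.27%, 0.690% and 1.36% in the first 3 of these and 0.988 to 0.996% leaving out a replicate. HM/MH inside, 0.273%, was 0.367% and 0.175% at 80 and 90%, 0.248% with 8 or more bins, 0.331% for valleys chosen on replicate 1 and measured in replicate 2, 0.237% as a mean of per-site percentages, 0.210% after correction and 0.196 to 0.278% leaving out a replicate. HC/CH in the flank, 5.99%, was 6.28% and 5.68% at 80 and 90%, 5.43% with 10 sites, 5.51% with 10 calls, 6.25% for valleys chosen on replicate 1 and measured in replicate 2, 5.82% after correction and 5.54 to 5.98% leaving out a replicate. The percent of valleys with a protein-coding TSS was 78.2% at 90%, 79.4% with 10 sites, 62.5% with 10 calls, 84.8% with any transcript start, an alternative chosen after seeing the data, and 69.7 to 71.9% leaving out a replicate. The homeobox genes with a TSS in a valley, 20 in all, were 38 and 9 at 80 and 90%, 40 with 4 or more bins, 4 with 8 or more, 3 with 10 calls and 3 to 22 leaving out a replicate. The share of all autosomal protein-coding genes, 1.29% as described, moved as well. It was 2.01% and 0.716% at 80 and 90%, 0.702% with 10 sites and 3.28% with 4 or more bins. With 8 or more bins it was 0.159%, with 10 calls 0.183% and leaving out a replicate 0.115 to 1.34%. Genes of the 8 factor lists, 32 in all (9.67%), were 55 (16.6%) and 14 (4.23%) at 80 and 90%. They were 61 (18.4%) with 4 or more bins, 7 (2.11%) with 8 or more and 4 (1.21%) with 10 calls. Pluripotency genes, 6 in all (30%), were 3 (15%) with 10 sites, 10 (50%) with 4 or more bins, 2 (10%) with 8 or more and 1 (5%) with 10 calls.

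The difference in HC/CH share between valleys and flank kept its direction under every alternative run and passed the threshold in all but that with 10 calls per site, where its mean was 7.82 points. The difference from the shorter runs became -0.422 points with 8 or more bins and -0.552 with 10 calls, without passing. In each case 1 replicate reversed, with 1.08 and -1.93 points with 8 or more bins and -1.43 and 0.331 with 10 calls in replicates 1 and 2. In replicate 1 alone it passed with 10 covered sites (adjusted p = 0.017, exact permutation test), and with the pUC19 subtraction (0.034) and shares after the spike-in correction (0.030), both chosen after seeing the data. Replicate 2 did not pass in any of these. The cause was not tested. No paired analysis was possible because both samples belong to 1 group, so that replicate numbers pair no samples. The test over autosomes pairs regions within a library. Sites with fewer than 5 calls are not in these data, and single valleys hold too few modified calls in replicate 2 for their division to be compared.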

Other observations

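Chromosome X was outside the rule. Under the same thresholds it held 544 runs of kept bins, of which 3 had 5 or more bins. They were 7, 8 and 5 kb wide, and the 5 kb run held the TSS of Rps4x, a ribosomal protein gene. CC in them was 93.3%, 96.5% and 94.7%, and HC/CH was 2.86%, 0.527% and 0.988%, over 490, 569 and 506 calls of both replicates. Few covered sites lay outside the autosomes. Autosomal sites were 13366464 of 13676795 in replicate 1 and 4882356 of 4918612 in replicate 2. The number of runs on chromosome X is therefore not comparable with that on the autosomes.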
